A study of Mus musculus with 35 samples.

Results

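Hoxb2, Hoxb3, Hoxb4, Hoxb5, Hoxb6, Hoxb7 and Hoxb8 are 7 neighbouring genes of the Hoxb cluster, 1 of the Hox clusters of the mouse genome. They were taken by name and are 7 of the 19138 genes counted in every library. Hox genes encode homeodomain transcription factors that lie in a row in each cluster, and in the embryo they are switched on in the order of that row. Polycomb complexes, which methylate histone H3 and compact chromatin, keep Hox clusters silent in cells that do not use them, and Trithorax-type complexes built around Kmt2a (MLL) keep them active. In the blood system, Hox factors act with homeodomain proteins of the TALE class, such as Meis1, in stem and progenitor cells and are lowered as these cells mature.

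RNA was measured in 35 libraries of mouse long-term haematopoietic stem cells (LT-HSCs), each made from 1000 sorted cells. Every mouse carried SclCre, a Cre recombinase driven by regulatory sequences of the gene Scl (Tal1), so the controls carried Cre too. The control group, SclCre alone, had 4 libraries, SclCre;Ezh2+/- had 7 and SclCre;Ezh2-/- had 4. The groups with the activating kinase mutation, SclCre;JAK2V617F, SclCre;JAK2V617F;Ezh2+/- and SclCre;JAK2V617F;Ezh2-/-, had 6, 8 and 6. JAK2V617F keeps the kinase of several blood cytokine receptors active and is the mutation known for myeloproliferative neoplasms, and Ezh2 is the main methyltransferase of Polycomb repressive complex PRC2. The labels gave an experimental batch (14 libraries in batch 1 and 21 in batch 2) and a sex (20 female and 15 male). All 4 controls were female, and 3 of the 4 Ezh2-/- libraries were male. In the JAK2V617F group the 2 libraries of batch 1 were female and the 4 of batch 2 were male. In batch 2, JAK2V617F against control therefore compared only male with female libraries. In the JAK2V617F;Ezh2-/- group 5 of 6 libraries were female. The age of the mice, the form of the Cre and the animal behind each library are not given in the labels, and a p-value here reflects only how these libraries scatter, which may be technical.

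The depth was 13554182 to 48557175 counts per library, and the median was 24914541 counts. The share of Ezh2 counts in a separately counted part of Ezh2 was 6.02% to 8.718% in the controls, 6.342% to 9.272% in the JAK2V617F group and at most 0.478% in the Ezh2-/- group. It was 0 of 5046 counts in the 6 JAK2V617F;Ezh2-/- libraries, where 3 counts in a single library would be 0.213% to 0.634%. The share was 0.0% to 9.497% (median 4.789%) in the Ezh2+/- group and 4.077% to 8.495% (median 6.894%) in the JAK2V617F;Ezh2+/- group. Ezh2+/- batch 2 replicates 1 and 3 had 1.738% and 1.774%, and batch 1 replicates 1 and 2 had 9.497% and 8.657%. No limit on the share was set for the Ezh2+/- genotype. In 2 libraries a value did not match the label. Ezh2+/- batch 1 replicate 3, as labelled, had 0 of 831 Ezh2 counts in this part, which allows a share of up to 0.361%, and Ezh2+/- batch 1 replicate 1, labelled male, had 394 CPM of Xist, where the other male libraries had 0.436 to 14.8 CPM. CPM is the usual depth-scaled count, with library sizes adjusted by the TMM method, except for Xist, where total counts were used. All 14 LT-HSC markers were detected and summed to 4460 to 5360 CPM in the controls. The 10 neutrophil and monocyte genes summed to 2490 to 6530 CPM there, an overlapping range. The 7 counted mature lymphocyte genes summed to 33.7 to 69.1 CPM, with 2 of them, the T cell genes Cd3e and Cd3g, at 0. How pure the sorted cells were was not tested. In libraries made from pools of cells, fewer cells that express a gene and less RNA of it per cell cannot be told apart.

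Per kilobase of gene length, Hoxb5 had the highest level of the 7 genes, with 11.6 ± 4.07 CPM per kb (mean ± SD, n = 35 libraries). Hoxb5 is the member used in reporter mice to mark long-term stem cells. Its neighbour Hoxb4, known for expanding stem cells when overexpressed, had 5.29 ± 2.46 CPM per kb, and Hoxb5 was above Hoxb4 in 34 of 35 libraries and in all 4 controls, without overlap of the control ranges. Hoxb3, studied together with Hoxb4 in stem cell proliferation, followed with 3.35 ± 0.978 CPM per kb and Hoxb2, a hindbrain patterning gene, with 2.63 ± 1.51. Hoxb6 had 1.72 ± 1.51 CPM per kb, Hoxb7 0.495 ± 0.722 and Hoxb8, known for blocking myeloid maturation when it is forced on, 0.0479 ± 0.137. Apart from Hoxb5 and Hoxb4, the control ranges of neighbours in this order overlapped. Hoxb4 was above Hoxb3 in 28 of 35 libraries, Hoxb3 above Hoxb2 in 24, Hoxb2 above Hoxb6 in 25, Hoxb6 above Hoxb7 in 29 and Hoxb7 above Hoxb8 in 21. Neither the counting rule nor the strand setting was stated in the labels, and Hoxb3, Hoxb4 and the antisense transcript Hoxb3os overlap in the genome, so reads that they share cannot be assigned with certainty.

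**Figure D1:**
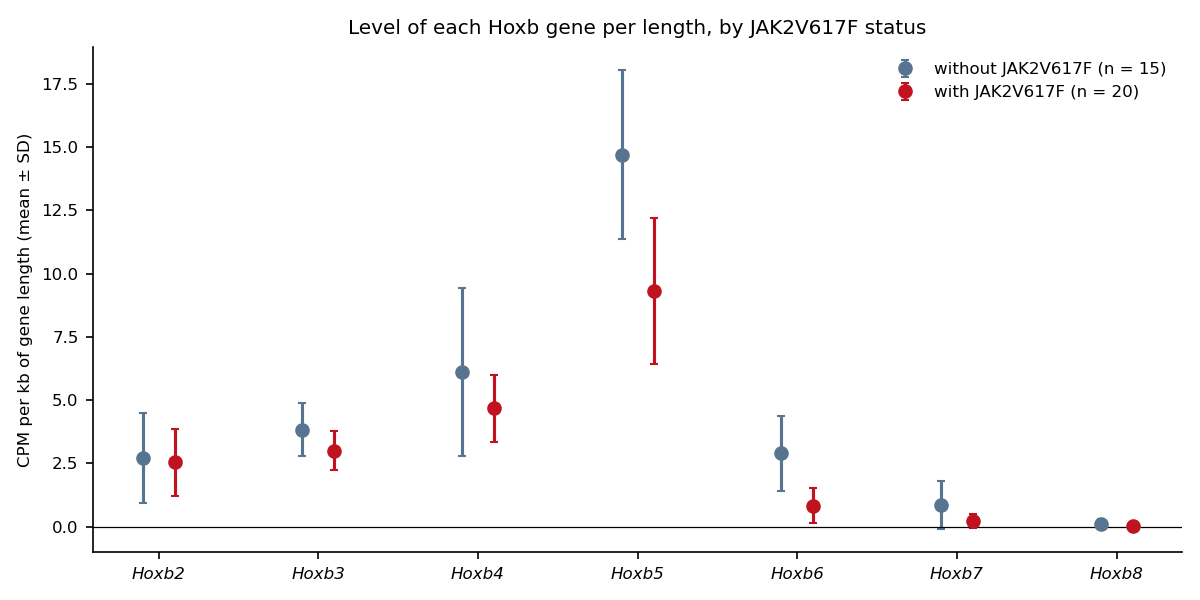
Level of each Hoxb gene in CPM per kb of gene length, with points for the mean and bars for the SD over the 15 libraries without and the 20 libraries with JAK2V617F. Hoxb5 stands highest in both sets (14.7 and 9.32 CPM per kb), and Hoxb7 and Hoxb8 lie close to 0.

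Hoxb2, Hoxb3, Hoxb4 and Hoxb5 had counts in all 35 libraries, Hoxb6 in 34, Hoxb7 in 23 and Hoxb8 in 11. Summed over all libraries, Hoxb5 had 21055 counts, Hoxb4 12960, Hoxb3 11736, Hoxb2 3973, Hoxb6 2028, Hoxb7 556 and Hoxb8 90. All 7 genes passed the filter on low counts, which asked for about 0.401 CPM in 4 libraries. Hoxb8 reached that level in exactly 4 libraries, all without JAK2V617F, so it was tested only because of libraries in which it was high. Hoxb7 reached it in 8 libraries without and 3 with JAK2V617F. The changes of these 2 genes are described but are not counted as support, and the other 5 genes reached the level in at least 12 libraries with JAK2V617F and in all 15 without it. The members just outside the 7, Hoxb1 and Hoxb9, were low: Hoxb9 had 2.71 ± 2.09 CPM in the 4 controls and Hoxb1 had 0.393 ± 0.754.

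The promoters of Hoxb4 and Hoxb8, which stand for the expressed and the nearly silent end of the set, were the ones found among RefSeq promoter windows for these 7 genes. The 250 bases before each start in RefSeq on GRCm38.p6, plus strand, are shown 5′ to 3′, at chr11:96318017-96318266 for Hoxb4 and chr11:96281655-96281904 for Hoxb8. Capitals mark the motifs that were found:
Hoxb4: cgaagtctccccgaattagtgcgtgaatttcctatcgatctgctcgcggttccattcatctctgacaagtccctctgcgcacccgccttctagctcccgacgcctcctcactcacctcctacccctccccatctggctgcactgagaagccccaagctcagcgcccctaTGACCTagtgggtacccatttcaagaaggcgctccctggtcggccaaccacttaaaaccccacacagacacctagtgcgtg
Hoxb8: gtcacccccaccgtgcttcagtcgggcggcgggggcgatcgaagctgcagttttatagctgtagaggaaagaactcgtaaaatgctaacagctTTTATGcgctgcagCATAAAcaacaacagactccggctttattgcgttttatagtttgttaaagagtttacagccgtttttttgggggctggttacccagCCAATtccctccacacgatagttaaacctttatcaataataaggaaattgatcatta
Searched on both strands were the E-box CACGTG, the CCAAT box CCAAT, the nuclear receptor half-site AGGTCA and the CDX motif TTTATG, none of which overlap in these windows. The Hoxb4 window held AGGTCA on the minus strand, 81 to 76 bases before the start, and had a GC content of 58.0%. The Hoxb8 window held CCAAT 57 to 53 bases before the start and TTTATG on each strand, 157 to 152 and 143 to 138 bases before it, and had a GC content of 44.4%. Of 32851 promoter windows of this length, 14% held AGGTCA, 33.8% CCAAT, 10.8% TTTATG and 6.02% CACGTG, and their median GC content was 52.4%. These matches are descriptions of letters, and no binding was measured.

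The first question was how the 7 genes differed between stem cells with and without JAK2V617F. Averaged over the 3 Ezh2 genotypes, 3 of the 5 genes other than Hoxb7 and Hoxb8 were called lower with JAK2V617F and 0 higher, in edgeR's quasi-likelihood test at a Benjamini-Hochberg adjusted p under 0.05 over all genes tested. Over all 14945 genes tested, 25.3% were called in this comparison and 12.4% were called lower. The median log2 change was -0.39 over these 5 genes and -0.01 over all genes. The 3 genes were Hoxb5, Hoxb6 and Hoxb3, while Hoxb2 and Hoxb4 did not pass. Hoxb8 also passed, which makes 4 of all 7, and Hoxb7 did not.

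Within single Ezh2 genotypes fewer genes passed. With Ezh2 intact, 1 of 7 genes (Hoxb6) was called in JAK2V617F against control, where 4.22% of all genes were called and 1.83% were called lower. In the Ezh2+/- genotype, 1 of 7 (Hoxb5) was called, against 9.05% of all genes and 4.18% called lower. In the Ezh2-/- genotype, 0 of 7 were called, against 4.84% of all genes; 1 of 7 had an unadjusted p under 0.05, against 18.4% of all genes, and DESeq2 and limma-voom also called 0 of 7. JAK2V617F;Ezh2-/- against control, which combines both changes, called 1 of 7 (Hoxb3), against 5.48% of all genes and 2.34% called lower. The comparisons of JAK2V617F and of JAK2V617F;Ezh2-/- with control share the 4 control libraries.

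**Figure D2:**
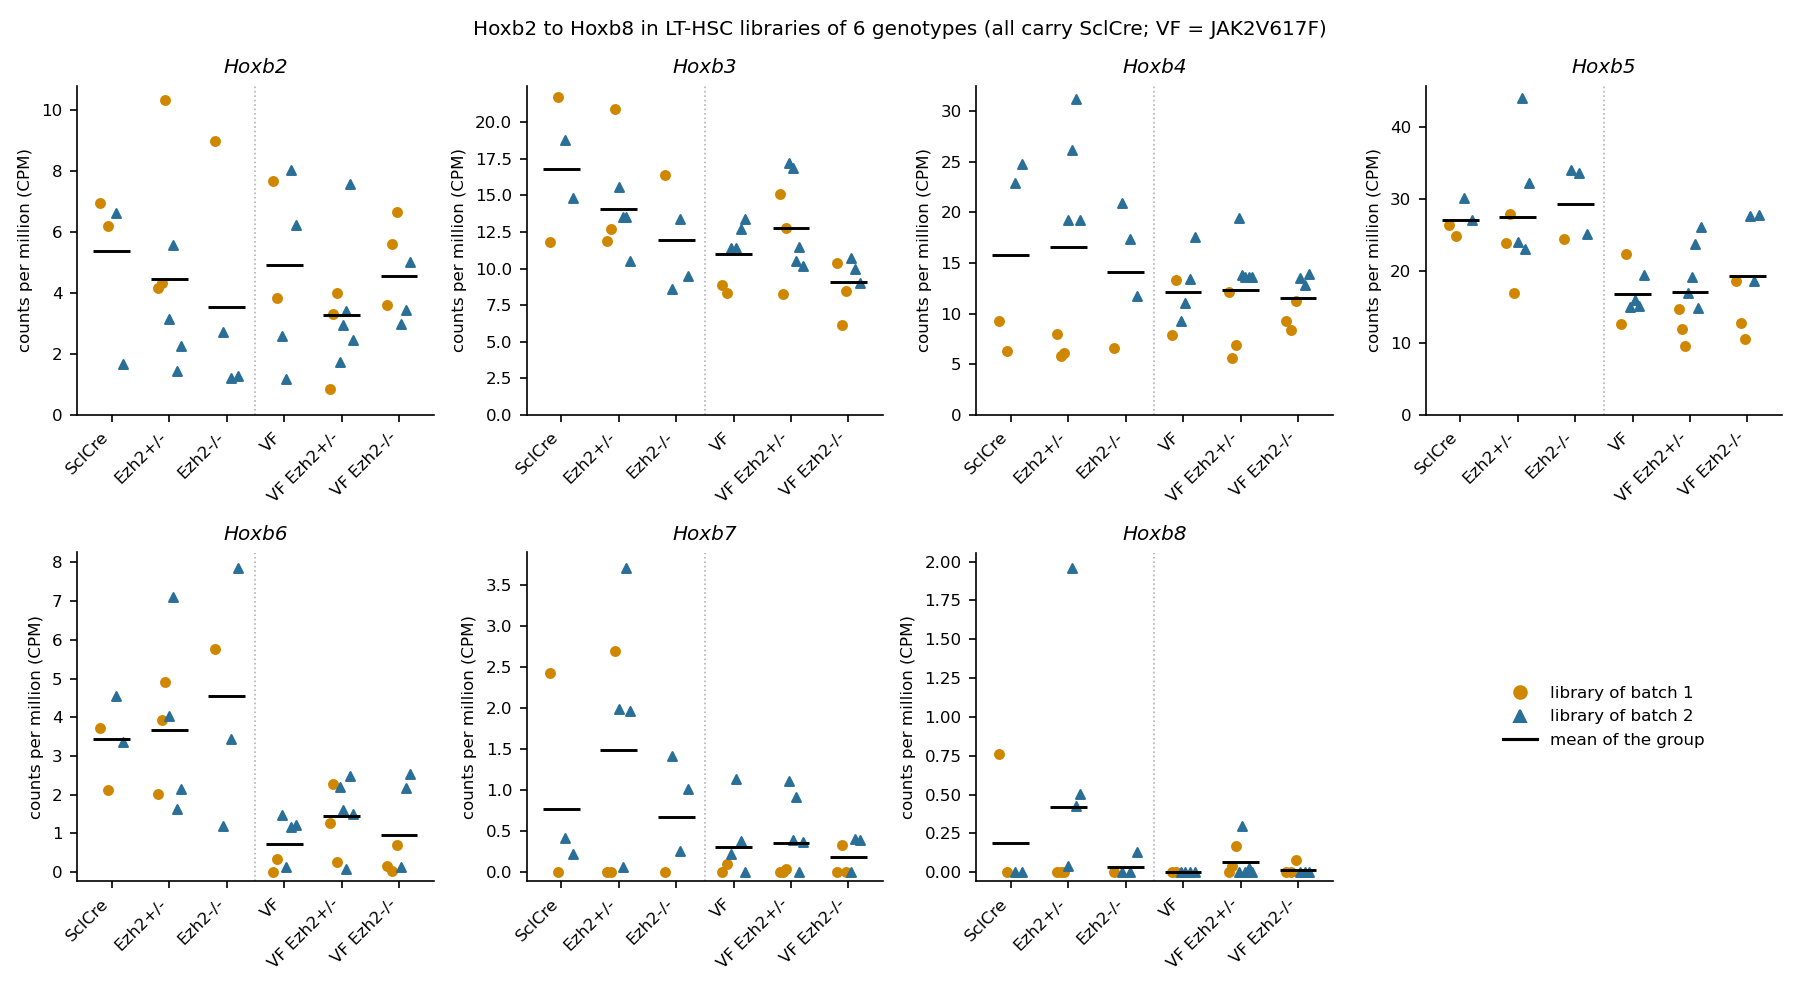
CPM of each Hoxb gene (vertical axis) in every library of the 6 genotypes (horizontal axis, VF for JAK2V617F), with circles for batch 1, triangles for batch 2 and lines for group means. Hoxb5 and Hoxb6 are lower to the right of the dotted line, in the libraries with JAK2V617F, and Hoxb4 separates by batch among libraries without JAK2V617F.

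Hoxb6, a gene whose forced expression expands myeloid progenitors, was the gene called in JAK2V617F against control. In the controls its level was 3.71 and 2.12 CPM in batch 1 and 4.56 and 3.37 CPM in batch 2, from 48 to 98 counts per library. In the 6 JAK2V617F libraries it ranged from 0.0 to 1.48 CPM with a median of 0.759, from 0 to 46 counts. All 6 JAK2V617F libraries lay below all 4 controls. The log2 change was -3.37 ± 1.0 (SE, edgeR adjusted p = 0.0464).

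The other Ezh2 genotypes showed a lower level of Hoxb6 with more overlap. Without JAK2V617F, the 7 Ezh2+/- libraries had 1.64 to 7.1 CPM (median 3.93), and with it the 8 libraries had 0.092 to 2.49 CPM (median 1.55). The 4 Ezh2-/- libraries had 5.75, 1.18, 3.45 and 7.86 CPM, and the 6 JAK2V617F;Ezh2-/- libraries 0.0422 to 2.53 CPM (median 0.43). Of the 8 and 6 libraries with JAK2V617F, 5 and 4 lay below every library of the same Ezh2 genotype without it. Neither change was called, with -1.35 ± 0.71 (edgeR adjusted p = 0.261) in Ezh2+/- and -1.64 ± 0.96 (adjusted p = 0.377) in Ezh2-/-. The mean over the 3 genotypes was -2.12 ± 0.48 (edgeR adjusted p = 0.0012), and all 20 libraries with JAK2V617F lay below the mean of the 15 without.

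The mean change of Hoxb6 was called with each of the 35 libraries left out in turn (-2.36 to -2.0). The change against control alone was not called in 19 of these 35 fits, among them those without any 1 of the 4 controls and those without any 1 of 5 of the 6 JAK2V617F libraries (all but batch 2 replicate 1). The other 10 were without JAK2V617F;Ezh2+/- batch 1 replicates 2 and 3 or batch 2 replicates 2 and 4, Ezh2+/- batch 2 replicates 1, 2 and 3, Ezh2-/- batch 2 replicates 1 and 3, or JAK2V617F;Ezh2-/- batch 2 replicate 2. Over the 35 fits the edgeR analysis gave adjusted p from 0.0309 to 0.117 and log2 changes from -3.6 to -2.96. The change against control was -4.05 ± 2.0 in batch 1 (edgeR adjusted p = 0.489) and -2.91 ± 1.25 in batch 2 (adjusted p = 0.45), and with no term for sex it was -2.53 ± 0.93 (adjusted p = 0.112). The batch 2 value set 4 male against 2 female libraries, so its sex term came from the other genotypes. Over all libraries the sex term of Hoxb6 was 1.08 ± 0.56 for males minus females (edgeR adjusted p = 0.632). Within batches, the mean change was -3.13 ± 1.12 (edgeR adjusted p = 0.15) in batch 1 and -1.64 ± 0.57 (adjusted p = 0.0596) in batch 2.

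Hoxb5 was lower with JAK2V617F by a smaller and less scattered amount. The controls had 26.4 and 24.9 CPM in batch 1 and 30.2 and 27.1 CPM in batch 2. The 6 JAK2V617F libraries had 12.6 to 22.3 CPM (median 15.6). All 6 lay below all 4 controls, as for Hoxb6, so 2 of the 7 genes had this separation, which 2.77% of all genes tested had. The log2 change of -0.76 ± 0.25 did not pass (edgeR adjusted p = 0.0818), and of 35 fits that left out a library it passed in 1, the fit without JAK2V617F batch 1 replicate 2, the highest of its group (-1.06, adjusted p = 0.0195).

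In the Ezh2+/- genotype, Hoxb5 had 17 to 44.0 CPM (median 24) without and 9.5 to 26.1 CPM (median 15.9) with JAK2V617F. The ranges overlapped, and 5 of the 8 libraries with JAK2V617F lay below all 7 without it. The change of -0.72 ± 0.20 was called (edgeR adjusted p = 0.0167). It was lost only without the library labelled Ezh2+/- batch 2 replicate 2, the highest of its group (-0.61 at the smallest, adjusted p = 0.0515), and it was called without the 2 libraries that did not match a label (-0.79 ± 0.22, adjusted p = 0.021). It was -0.80 ± 0.40 in batch 1 (adjusted p = 0.477) and -0.60 ± 0.22 in batch 2 (adjusted p = 0.145), and limma-voom gave -0.57 ± 0.21 (adjusted p = 0.0943). In the Ezh2-/- genotype, Hoxb5 had 24.4, 34.1, 33.6 and 25.2 CPM without and 10.6 to 27.8 CPM (median 18.6) with JAK2V617F, and the change of -0.53 ± 0.25 was not called (edgeR adjusted p = 0.26).

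Averaged over the 3 genotypes, the log2 change of Hoxb5 was -0.67 ± 0.13 (edgeR adjusted p = 0.000181), and all 20 libraries with JAK2V617F lay below the mean of the 15 without. Of the 20, 11 lay below the lowest library without the mutation. The call held with each of the 35 libraries left out (-0.73 to -0.63). The change was -0.62 ± 0.32 in batch 1 (adjusted p = 0.349) and -0.59 ± 0.15 in batch 2 (adjusted p = 0.0112). Among females alone it was -0.40 ± 0.20 (adjusted p = 0.235), where 8.69% of all genes were called and 0 of the 7. The 8 females without JAK2V617F had 25.8 ± 5.06 CPM of Hoxb5 and the 12 with it 18 ± 6.3, and the 7 males without it had 30.2 ± 7.2 and the 8 with it 17.1 ± 4.29. A term for a different JAK2V617F change in males and females, added after the data were seen, was -0.66 ± 0.30 for Hoxb5 (unadjusted p = 0.0338, edgeR adjusted p = 0.984), and this term was called for 0.0% of all genes.

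Hoxb3 changed less. The controls had 11.8 and 21.7 CPM in batch 1 and 18.8 and 14.8 CPM in batch 2, and the 6 JAK2V617F libraries had 8.36 to 13.4 CPM (median 11.4). Of these 6, 4 lay below all controls, and the change of -0.54 ± 0.28 was not called (edgeR adjusted p = 0.334). The 6 JAK2V617F;Ezh2-/- libraries had 6.16 to 10.7 CPM (median 9.48), all below the controls. How many of all genes separated in this way in this comparison was not counted. The change of Hoxb3 from control was called, at -0.86 ± 0.26 (edgeR adjusted p = 0.0408). That call was lost in 6 of 35 fits that left out a library, namely control batch 1 replicate 2, control batch 2 replicates 2 and 4, and JAK2V617F;Ezh2-/- batch 1 replicates 2 and 3 and batch 2 replicate 3 (adjusted p up to 0.177). It was -1.01 ± 0.43 in batch 1 (edgeR adjusted p = 0.379) and -0.71 ± 0.33 in batch 2 (adjusted p = 0.401), and limma-voom called Hoxb6 in this comparison (-2.6 ± 0.82, adjusted p = 0.048) and not Hoxb3.

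The change of Hoxb3 was -0.17 ± 0.21 in the Ezh2+/- genotype (edgeR adjusted p = 0.697) and -0.46 ± 0.28 in the Ezh2-/- genotype (adjusted p = 0.403). The mean over the 3 genotypes was -0.39 ± 0.14 (edgeR adjusted p = 0.0387), and 17 of 20 libraries with JAK2V617F lay below the mean of those without. This call was lost in 12 of 35 fits that left out a library (adjusted p from 0.0198 to 0.106). These were control batch 1 replicate 2 and batch 2 replicate 2, Ezh2+/- batch 1 replicate 3, Ezh2-/- batch 1 replicate 1 and batch 2 replicate 2, JAK2V617F batch 1 replicates 1 and 2, JAK2V617F;Ezh2+/- batch 1 replicate 2 and batch 2 replicates 3 and 5, and JAK2V617F;Ezh2-/- batch 1 replicates 2 and 3. It was -1.09 ± 0.33 in batch 1 (adjusted p = 0.0891) and -0.16 ± 0.16 in batch 2 (adjusted p = 0.591). Without the 2 libraries that did not match a label it was -0.35 ± 0.14 (adjusted p = 0.0701), and limma-voom gave -0.28 ± 0.14 (adjusted p = 0.146).

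**Figure D3:**
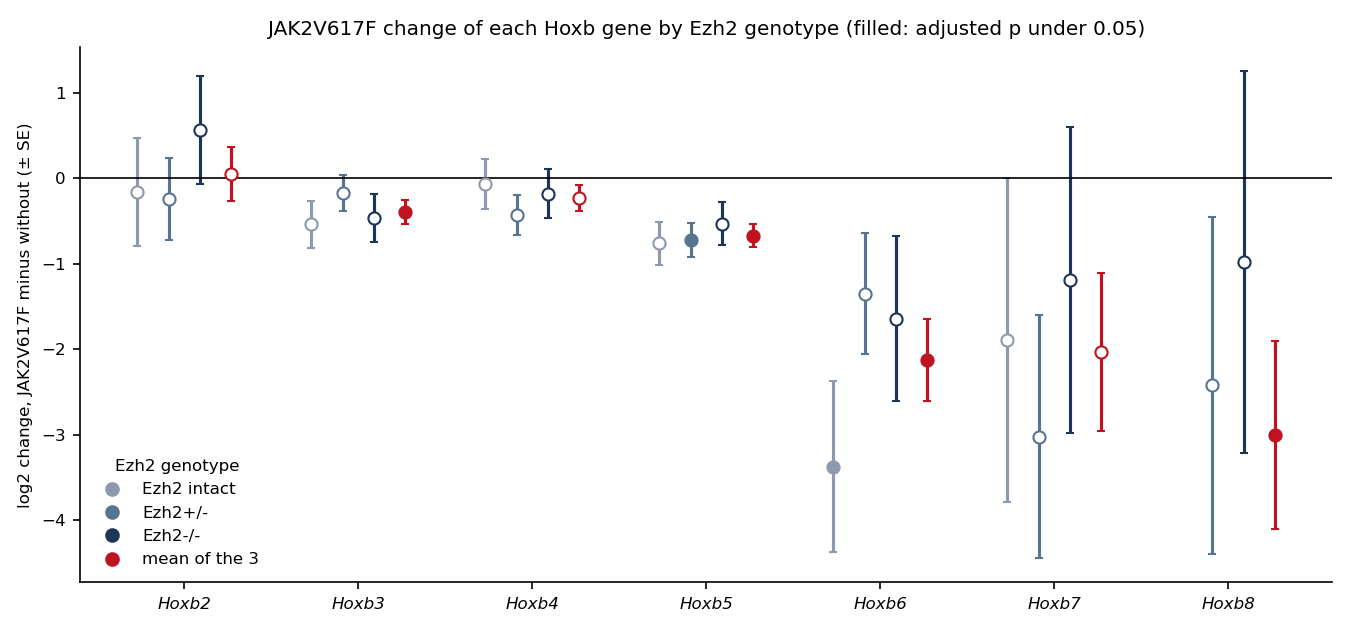
Log2 change of each Hoxb gene with JAK2V617F (points) with its SE (bars), within each Ezh2 genotype and averaged over the 3. Filled points passed an edgeR adjusted p under 0.05. Hoxb5 is lower by a like amount in each genotype (-0.76, -0.72 and -0.53), and the bars widen from Hoxb6 to Hoxb8. The Hoxb8 value with Ezh2 intact is left out because all 6 JAK2V617F libraries were at 0.

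Hoxb7 and Hoxb8 were detected too rarely for a firm comparison. Hoxb7 had 2.43, 0.0, 0.418 and 0.221 CPM in the controls, 0.0 to 3.71 CPM in Ezh2+/- (median 1.97) and 0.0, 1.41, 0.258 and 1.01 CPM in Ezh2-/-. With JAK2V617F no library exceeded 1.14 CPM. The mean change of -2.03 ± 0.92 was not called (edgeR adjusted p = 0.106), and 18 of 20 libraries with JAK2V617F lay below the mean of those without.

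All 16 control counts of Hoxb8 came from 1 library, batch 1 replicate 1 (0.762 CPM), and the other 3 controls were at 0. The 6 JAK2V617F libraries had no count, which makes Hoxb8 at least 10.6-fold lower there, with 3 counts over the whole group as the limit. Without that control both groups are at 0 and no ratio exists. The Ezh2+/- libraries had 53 counts in all, with 29 in 1 library, and the 15 libraries without JAK2V617F had 73 counts against 17 in the 20 with it. The mean change of -3.00 ± 1.10 (edgeR adjusted p = 0.0444) rests on a fit to a group at 0, and it was lost in 16 of the 32 fits that left out a library and could test Hoxb8. Without control batch 1 replicate 1 it was -0.96 (adjusted p = 1.0), and DESeq2 gave an adjusted p of 0.246.

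Hoxb4 and Hoxb2 showed no called change with JAK2V617F. Hoxb2 had 6.95, 6.18, 6.6 and 1.68 CPM in the controls and 1.17 to 8.01 CPM (median 5.02) in the JAK2V617F libraries, and its mean change was 0.05 ± 0.32 (edgeR adjusted p = 0.941, interval of 2 SE from -0.59 to 0.69). Hoxb4 had 9.24, 6.26, 22.9 and 24.8 CPM in the controls and 7.92 to 17.6 CPM (median 12.1) in JAK2V617F, with overlap, and a mean change of -0.23 ± 0.15 (edgeR adjusted p = 0.297, interval of 2 SE from -0.53 to 0.07). For Hoxb4, that average joined batches that differed.

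Of the 7 genes, Hoxb4 had the batch difference with the smallest adjusted p. Among the 15 libraries without JAK2V617F, Hoxb4 had 5.85 to 9.24 CPM (median 6.43) in the 6 of batch 1 and 11.7 to 31.2 CPM (median 20.9) in the 9 of batch 2. These ranges did not overlap, and how many of all genes separated by batch in this way was not counted. The log2 difference of batch 2 from batch 1 was 1.11 ± 0.16 for Hoxb4 (edgeR adjusted p = 1.72e-06) and 0.44 ± 0.13 for Hoxb5 (adjusted p = 0.0123). These 2 of 7 genes were called for batch, against 28% of all genes. Hoxb7 had a larger fitted difference that did not pass (2.81 ± 1.25, edgeR adjusted p = 0.0913). Hoxb2 went the other way without passing (-0.69 ± 0.33, adjusted p = 0.121), with medians of 6.56 CPM in batch 1 and 2.27 CPM in batch 2 among libraries without JAK2V617F. The median depth was 22581439 counts in batch 1 and 32340003 counts in batch 2, and its part in these differences was not tested.

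With JAK2V617F, Hoxb4 had 5.58 to 13.3 CPM (median 8.81) in the 8 libraries of batch 1 and 9.29 to 19.4 CPM (median 13.6) in the 12 of batch 2. The median with the mutation was higher than without it in batch 1 and lower in batch 2. Batch 2 fitted alone gave a mean change of -0.59 ± 0.16 for Hoxb4 (edgeR adjusted p = 0.0155), and Hoxb4 and Hoxb5 were the 2 of 7 genes called, against 13.9% of all genes. Batch 1 alone gave 0.29 ± 0.46 for Hoxb4 (adjusted p = 0.89), with 0 of 7 called against 3.71% of all genes. A term for a different JAK2V617F change in batch 2 than in batch 1, added after the data were seen, was -0.92 ± 0.29 for Hoxb4 with an unadjusted p of 0.00312, but it did not pass over all genes (edgeR adjusted p = 0.195). It was 0.63 ± 0.28 for Hoxb3 (unadjusted p = 0.0312, adjusted p = 0.424), and 0.174% of all genes were called. For sex, 0 of 7 genes were called against 0.0335% of all genes. The largest sex term relative to its SE was that of Hoxb4, at -0.47 ± 0.17 for males minus females (edgeR adjusted p = 0.47). That of Hoxb6 was 1.08 ± 0.56 (adjusted p = 0.632), and without a sex term Hoxb6 was not called in JAK2V617F against control.

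**Figure D4:**
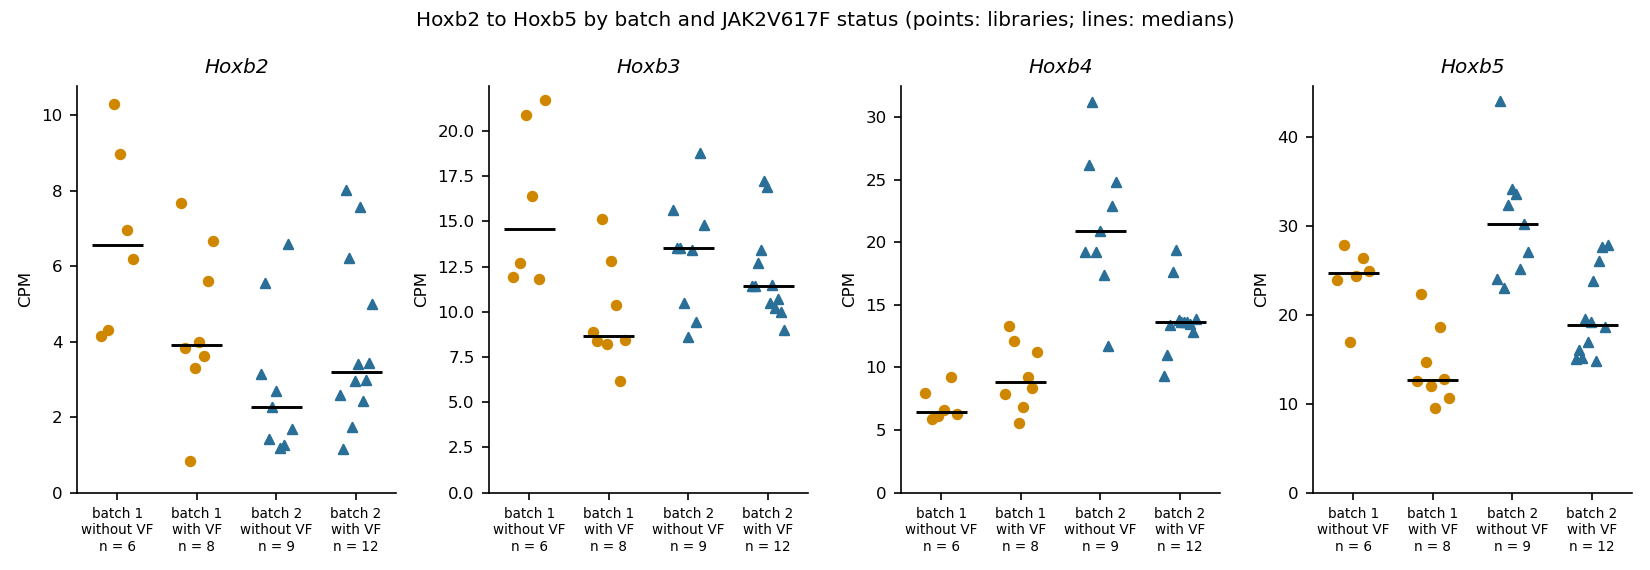
CPM of Hoxb2, Hoxb3, Hoxb4 and Hoxb5 (vertical axis) in libraries of batch 1 and batch 2 without and with JAK2V617F (horizontal axis), with points for libraries and lines for medians. Hoxb4 without JAK2V617F rises from a median of 6.43 CPM in batch 1 to 20.9 CPM in batch 2, and Hoxb5 is lower with JAK2V617F in both batches.

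The second question was what loss of Ezh2 did to genes that Polycomb is known to silence. In no comparison of Ezh2 genotypes was any of the 7 Hoxb genes called. Without JAK2V617F, Ezh2-/- against control called 0 of 7 genes and 0.00669% of all genes, with 0 of 7 and 5.96% at an unadjusted p under 0.05. Ezh2 itself was not called there (-0.94 ± 0.26, edgeR adjusted p = 0.453), so a missing call in this comparison does not show an unchanged level. With JAK2V617F, Ezh2 was called lower in Ezh2-/- (-1.5 ± 0.21, edgeR adjusted p = 8.22e-05). Ezh2+/- against control called 0 of 7 and 0.0% of all genes, with 0 of 7 and 5.17% unadjusted. DESeq2 and limma-voom called 0 of 7 in these and in every Ezh2 comparison below.

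The levels overlapped widely. Hoxb5 had 24.9 to 30.2 CPM in the controls and 24.4 to 34.1 CPM in Ezh2-/-, with a change of -0.01 ± 0.28 (edgeR adjusted p = 1.0, interval of 2 SE from -0.58 to 0.55). Hoxb4, with 6.26 to 24.8 CPM in the controls, had 6.59, 20.9, 17.4 and 11.7 CPM in Ezh2-/- and a change of -0.01 ± 0.33 (adjusted p = 1.0, interval from -0.67 to 0.65). Hoxb3 had 16.4, 8.62, 13.4 and 9.46 CPM in Ezh2-/-, a change of -0.41 ± 0.32 (adjusted p = 0.981, interval from -1.04 to 0.22). Hoxb6 had a change of -0.66 ± 1.08 (adjusted p = 1.0), with the wider interval from -2.81 to 1.49. All 7 fitted changes were below 0 and none was called, and 3 of the 4 Ezh2-/- libraries but no control were male. The fit had a term for sex, estimated over all 35 libraries.

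With JAK2V617F, loss of both Ezh2 alleles called 0 of 7 genes and 0.475% of all genes, and 0 of 7 had an unadjusted p under 0.05, against 7.13% of all genes. Hoxb5 had 12.6 to 22.3 CPM in JAK2V617F and 10.6 to 27.8 CPM in JAK2V617F;Ezh2-/-, a change of 0.22 ± 0.23 (edgeR adjusted p = 0.971, interval of 2 SE from -0.23 to 0.67). The change of Hoxb6 was 1.06 ± 0.86 (adjusted p = 0.941), and 2 of the 6 JAK2V617F;Ezh2-/- libraries lay above all JAK2V617F libraries. JAK2V617F;Ezh2+/- against JAK2V617F called 0 of 7 and 0.0% of all genes. There, 1 of 7 genes (Hoxb8, at 0 in the whole JAK2V617F group) had an unadjusted p under 0.05, against 3.87% of all genes.

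Averaged over both JAK2 backgrounds, loss of both Ezh2 alleles called 0 of 7 genes and 0.408% of all genes, with 0 of 7 and 7.82% at an unadjusted p under 0.05. The mean change was 0.10 ± 0.17 for Hoxb5, -0.07 ± 0.20 for Hoxb4, -0.36 ± 0.18 for Hoxb3 (edgeR adjusted p = 0.669) and 0.20 ± 0.63 for Hoxb6. The Ezh2-/- change did not differ by a called amount between JAK2 backgrounds for any of the 7 genes (0.00669% of all genes called; 0 of 7 and 5.41% unadjusted), nor did the Ezh2+/- change (0.0% of all genes called; 0 of 7 and 4.16% unadjusted). These terms also test whether the JAK2V617F change differed between Ezh2 genotypes. For Hoxb5 the difference was 0.23 ± 0.38 with Ezh2-/- (interval of 2 SE from -0.53 to 1.0) and 0.04 ± 0.34 with Ezh2+/- (interval from -0.63 to 0.71). For Hoxb6 it was 1.72 ± 1.49 (interval from -1.26 to 4.71) and 2.02 ± 1.22 (interval from -0.42 to 4.45), so the call of Hoxb6 with Ezh2 intact alone does not show a larger change there.

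Other Hox genes were set beside the 7. Of 11 Hoxa genes counted, 9 were tested, and with JAK2V617F averaged over Ezh2 genotypes 6 of them were called lower and 0 higher, with a median log2 change of -0.68. Over all genes tested, 25.3% were called in this comparison and 12.4% were called lower. Hoxa5 was -1.25 ± 0.13 (edgeR adjusted p = 1.09e-08) and Hoxa9, the partner of Meis1 in leukaemia, was -0.68 ± 0.08 (adjusted p = 6.37e-08). Hoxa3 was -0.94 ± 0.19 (adjusted p = 0.000307) and Hoxa10 -0.40 ± 0.09 (adjusted p = 0.00111). The paralogues of groups 3, 5 and 6 were called lower in both clusters. Of group 4, neither was called, with Hoxa4 at -0.42 ± 0.67 and Hoxb4 at -0.23 ± 0.15. In group 7, Hoxa7 was called (-0.38 ± 0.12, adjusted p = 0.0176) and Hoxb7 was not. Outside the 7, Hoxb9 had 0.0 to 5.02 CPM in the controls and 0.0 to 1.24 CPM in JAK2V617F, and its mean change of -2.53 ± 0.98 was not called (adjusted p = 0.0562). Hoxb13 had 1 count in all libraries together, and of the 5 tested genes of the Hoxc and Hoxd clusters 0 were called. In the comparisons of Ezh2 genotypes, 0 of 9 Hoxa genes were called, where at most 0.475% of all genes were called.

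**Figure D5:**
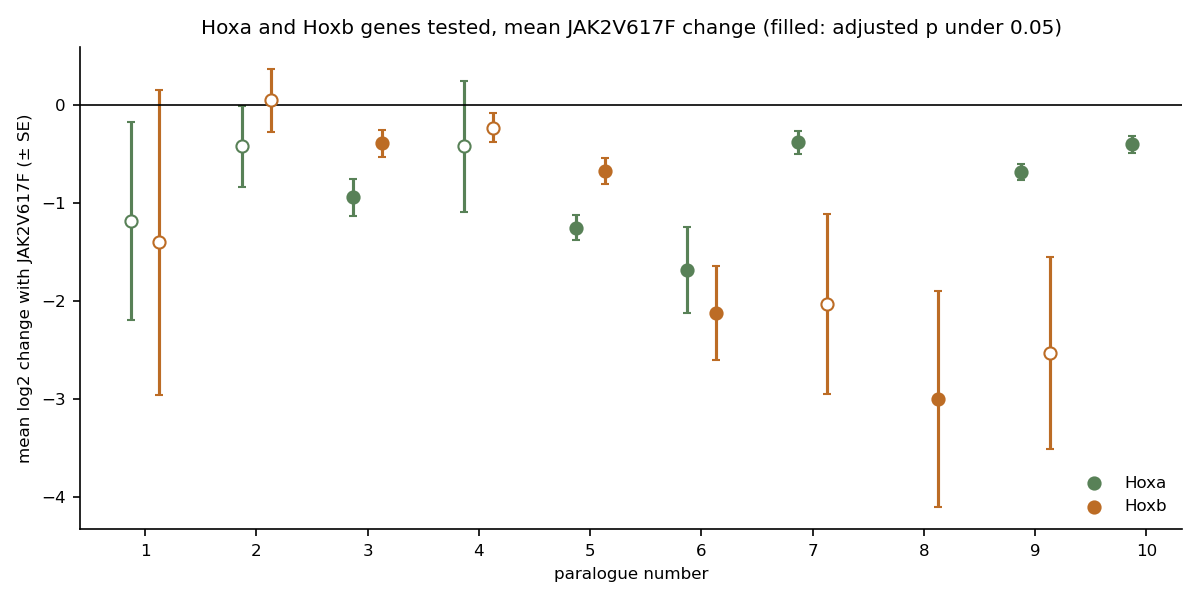
Mean log2 change with JAK2V617F over the 3 Ezh2 genotypes (vertical axis, points with SE bars) of each tested Hoxa and Hoxb gene by paralogue number (horizontal axis). Filled points passed an edgeR adjusted p under 0.05. Hoxa3, Hoxa5, Hoxa6, Hoxa7, Hoxa9, Hoxa10, Hoxb3, Hoxb5, Hoxb6 and Hoxb8 passed and lie below 0, and Hoxb2 is the one point above 0 (0.05). Hoxb8 is not counted as support.

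Genes that act on or with Hox proteins were described by list. The counts below are for the mean JAK2V617F effect, where 25.3% of all genes were called and 12.4% were called lower. Of 10 tested TALE cofactors, 2 were lower with JAK2V617F on average and 0 higher: Meis1 at -0.27 ± 0.05 (edgeR adjusted p = 2.43e-05) and Meis3 at -2.85 ± 0.53 (adjusted p = 0.000102). Of 18 tested genes known to activate Hox clusters, 7 were lower and 1 higher, with a median of -0.24. Mllt3, a subunit of the super elongation complex and a stem cell regulator, had -1.21 ± 0.08 (adjusted p = 1.94e-13), and Kmt2a, the MLL methyltransferase, had -0.41 ± 0.07 (adjusted p = 3.21e-05). Men1, the MLL partner menin, had -0.26 ± 0.09 (adjusted p = 0.0222). The 1 that rose was Nfyb, a subunit of the CCAAT-binding factor NF-Y (0.38 ± 0.09, adjusted p = 0.00183). The CDX factors Cdx1, Cdx2 and Cdx4 were not among the counted genes, and only the lists' own counts are given here.

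Polycomb genes moved in both directions. Of 11 tested PRC2 genes, 3 were higher and 2 lower with JAK2V617F on average, with a median of 0.08. Ezh1, the second PRC2 methyltransferase, had -0.63 ± 0.09 (edgeR adjusted p = 2.21e-06), and Ezh2 itself had 0.46 ± 0.12 (adjusted p = 0.00414). That average includes the genotypes in which Ezh2 was deleted, and in no single genotype was the change of Ezh2 called. It was 0.76 ± 0.24 with Ezh2 intact (edgeR adjusted p = 0.0673). In Ezh2+/- it was 0.43 ± 0.18 (adjusted p = 0.136) and in Ezh2-/- 0.2 ± 0.23 (adjusted p = 0.715). Of 12 PRC1 genes, 5 were lower and 0 higher, with a median of -0.24. The chromobox gene Cbx7, the main reader of Polycomb marks in stem cells, had -0.85 ± 0.11 (adjusted p = 5.08e-07), and Bmi1, a self-renewal gene, had -0.53 ± 0.13 (adjusted p = 0.00216). With 25.3% of all genes called, these counts are descriptions of the lists.

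The genes on either side of the Hoxb cluster did not follow a single direction. Of 10 neighbours, 8 were tested, with a median log2 change of -0.21 for the mean JAK2V617F effect. Of the 8, 1 was called higher and 2 lower, against 25.3% of all genes called and 12.4% called lower. Atp5g1, a subunit of ATP synthase, was higher (0.39 ± 0.12, edgeR adjusted p = 0.0157), and Nfe2l1, a stress response factor, and Copz2, a coatomer subunit, were lower (-0.32 ± 0.09, adjusted p = 0.00987, and -0.48 ± 0.14, adjusted p = 0.0103). Cbx1 and Snx11 were not called (0.10 ± 0.07 and -0.18 ± 0.22). In the 3 comparisons with JAK2V617F within single Ezh2 genotypes, 0 of 8 neighbours were called, against 4.22%, 9.05% and 4.84% of all genes. Of the noncoding RNAs of the cluster, Mir10a had 1 count and Mir196a-1 4 counts over all libraries, and Hoxb3os and Hoxb5os were not among the counted genes.

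Marker genes of cell states were summed and tested in the same libraries. The sums below are for the control and JAK2V617F groups. Unless said otherwise, the calls are for the mean JAK2V617F effect over the 3 Ezh2 genotypes. There, 25.3% of all genes were called and 12.4% were called lower. The 18 proliferation genes summed to 550.0 to 876.0 CPM in the controls and 1440.0 to 2820.0 CPM in the JAK2V617F group, and all 18 were called higher on average over Ezh2 genotypes. The 14 LT-HSC markers summed to 4460 to 5360 CPM in the controls and 2750.0 to 4250.0 CPM in JAK2V617F, with 8 of 14 called lower and 0 higher, among them Ndn (-1.18 ± 0.07, edgeR adjusted p = 4.02e-14). Of 10 erythroid and megakaryocyte genes, summed to 335.0 to 544.0 CPM in the controls and 336.0 to 1180.0 CPM in JAK2V617F, 3 were higher and 2 lower on average. The 10 neutrophil and monocyte genes summed to 2490.0 to 6530.0 CPM in the controls and 1760.0 to 16200.0 CPM in JAK2V617F, with 0 called. Of the progenitor markers, which summed to 458.0 to 553.0 CPM in the controls and 512.0 to 880.0 CPM in JAK2V617F, 2 of 7 tested were higher and 1 lower, with Rag1 at 0 in both groups. Mature lymphocyte genes summed to 33.7 to 69.1 CPM in the controls and 34.6 to 191.0 CPM in JAK2V617F. On average 1 of 5 tested was higher, while in JAK2V617F against control 1 of 5 (Ms4a1) was lower and 0 higher. Endothelial and stromal genes summed to 91.5 to 124.0 CPM in the controls and 76.2 to 136.0 CPM in JAK2V617F. Of these, 1 of 8 was lower on average and 0 of 8 were called in JAK2V617F against control. The part of these marker changes in the lower Hoxb5, Hoxb6 and Hoxb3 was not tested.

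Across the 35 libraries, the 7 genes shared little of their variation. After batch means were taken out of log2 CPM, the highest Pearson correlations among them were 0.50 for Hoxb3 with Hoxb6 and 0.44 for Hoxb5 with Hoxb6. Hoxb6 was the gene of rank 147 by correlation with Hoxb3 among 14944 genes. Hoxb4 had 0.29 with Hoxb5 and 0.05 with Hoxb3, its neighbour, and Hoxb2 had none above 0.09. The genes closest to Hoxb5 were Gng11 (0.77), Net1 (0.76) and Matn4 (0.75), and those closest to Hoxb6 were Gas6 (0.77), St3gal1 (0.76) and Slc50a1 (0.76). For Hoxb3 the closest was Rsbn1 (0.74) and for Hoxb4 Fzd1 (0.71). For Hoxb2 it was Eif4ebp1 (0.66) and for Hoxb7 Stx4a (0.64). For Hoxb8, with most libraries at 0, 1110032A03Rik, Dlk2 and Erc2 tied at 0.63, and its value with Hoxb9 was 0.49. These values describe libraries that share genotype groups and depth, and genes that differ with JAK2V617F correlate through the groups.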

How the data were processed

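Each of the 35 deposited files holds raw counts by Entrez gene, with a gene length in bases deposited beside them as another value. Per the labels' protocols, RNA of 1000 sorted cells went into a SMARTer low-input preparation, and STAR and mm9 are named, per the submitters' processing notes. For the counting tool, annotation and strand the answer is: not given in the sources used here. Symbols came from a GRCm38 reference, for names only, and matched 19075 of 19138 genes. A separately counted part of Ezh2 (at most 0.000935% of a library) stayed out of library sizes and tests.

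The labels supplied genotype, batch, sex and replicate. All libraries were fitted in 1 model with terms for group, batch and sex by edgeR 4.0.16 (R 4.3.3, robust quasi-likelihood, TMM factors 0.937 to 1.062, filterByExpr by group, about 0.401 CPM in 4 libraries, leaving 14945 genes), with Benjamini-Hochberg adjustment over all genes within each of 12 comparisons and calls at 0.05. The SE is the absolute log2 change divided by the root of F. The common biological coefficient of variation was 0.554. Correlations used log2 CPM with a prior count of 2. No 2 libraries of a group agreed within counting noise (lowest reduced chi-square 46.3 over 91 pairs). Limits for a count of 0 use 3 counts and cover counting error only. Alternatives were DESeq2 1.42.0, limma 3.58.1 with voom, other normalisation, no filter, no sex term, a replicate block, single batches, females alone, compared groups only, no robust estimate and each library left out.

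The 7 genes and the lists were chosen with earlier results of these data known. The plan was to name the 7 genes, up to 4 called genes of smallest adjusted p from each list, and the 3 genes most like each member. Not all of these are named. Among those left out is Cbx6, the PRC1 gene of smallest adjusted p in the mean JAK2V617F effect. For Hoxb2, Hoxb3, Hoxb4 and Hoxb7 only the closest gene is given. Cbx1, Snx11, Men1, Nfyb, Hoxa4, Hoxa6, Hoxa7, Hoxb1 and Hoxb9 were named after their values were seen. The terms for a JAK2V617F change that differs by batch or sex, and the fit with no robust estimate, were added after seeing the data.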

Additional observations from a re-analysis of the deposited data

Results flagged for a closer look

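In 41 groups of 4 to 8 libraries that were checked, single libraries stood apart by Dixon's test at its 95% level in 7. The usual rate of 1 such case in 20 groups holds for normally distributed values. It does not hold for genes with many libraries at 0. Hoxb2 was lowest in control batch 2 replicate 4, with 1.68 CPM, while the other 3 controls had 6.18 to 6.95 CPM. Hoxb2 was highest in JAK2V617F;Ezh2+/- batch 2 replicate 4, with 7.56 CPM, while the other 7 had 0.848 to 4.0 CPM. Hoxb7 stood at 1.14 CPM in JAK2V617F batch 2 replicate 2, above 0.0 to 0.382 CPM in the other 5. The other 4 cases were Hoxb8, which was near 0 elsewhere. It had 0.762 CPM in control batch 1 replicate 1, 1.96 CPM in Ezh2+/- batch 2 replicate 2 (others up to 0.501 CPM), 0.13 CPM in Ezh2-/- batch 2 replicate 3 and 0.0784 CPM in JAK2V617F;Ezh2-/- batch 1 replicate 3. The last of these is 2 counts. All other libraries of the control, Ezh2-/- and JAK2V617F;Ezh2-/- groups were at 0 for Hoxb8, where Dixon's test flags any count in 1 library. Without control batch 1 replicate 1, the mean change of Hoxb8 with JAK2V617F was no longer called.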

How the results depend on the processing

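Of 986 member results under other settings, 948 kept their side of the threshold, 36 lost a call and 2 gained one. With each library left out, 2848 of 2904 kept theirs, 54 lost a call and 2 gained one. The sign turned in 104 of the 986 and 90 of the 2904, none of them called before or after (Hoxb4 in the mean JAK2V617F effect went from -0.23 to 0.29 in batch 1 alone). For the mean JAK2V617F effect, 4 genes were called; limma-voom, no filter on low counts, the replicate block and batch 2 alone called 2, batch 1 alone and females alone called 0, and leaving out a library called 2 to 4. For JAK2V617F against control, 1 was called; no filter, no sex term, compared groups only, each batch alone and females alone called 0. For JAK2V617F;Ezh2+/- against Ezh2+/-, 1 was called; limma-voom, compared groups only, each batch alone and females alone called 0. For JAK2V617F;Ezh2-/- against control, 1 was called; no filter, compared groups only, each batch alone and females alone called 0. Leaving out a library called 0 to 1 in each of these 3. The cause was not tested. The comparison of mean effects has no form with compared groups only. Replicate numbers did not pair libraries (correlations of deviations from -0.177 to 0.077 over 69 pairs), and with the replicate block Hoxb3 had an adjusted p of 0.0624 and Hoxb8 of 0.126 in the mean effect. Hoxb6 to Hoxb8 rest on low counts, where only large changes can be seen.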
